A study of Mus musculus with 6 samples.

Results

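The 32 protein-coding genes described here were those whose summed regulatory input was lowest in oligodendrocyte precursor cells (OPCs) treated with interferon-gamma (IFN-γ) relative to untreated cells. The measure was the gene total of the activity-by-contact (ABC) model: the activity of every candidate element around a gene, multiplied by the contact between element and transcription start site, and summed over all of them. It was recovered for each gene by dividing an element's product of activity and contact by its ABC score, which is that product as a share of the total. The genes were chosen by these values alone, as those with a log2 ratio of IFN-γ to control total of -0.5 or less, and they made up 0.316% of the 10115 protein-coding genes listed in both conditions. At the mirror threshold of 0.5 or more, 106 genes (1.05%) were found. The total includes the gene's own promoter, so the name "enhancer input" covers more than distal enhancers. Since the selection used this contrast, and each condition had 1 table with no replicate values, every difference below is a description of 2 tables with no error and no test.

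Enhancers are stretches of open chromatin, often marked by acetylation of histone H3 at lysine 27 (H3K27ac), that raise transcription of a gene they touch in the folded nucleus. The ABC model puts this into a number by taking chromatin accessibility and H3K27ac signal as the activity of an element and its looping frequency as the contact. OPCs are the glial progenitors that divide and mature into myelinating oligodendrocytes. IFN-γ, a cytokine of activated T cells and natural killer cells, binds a receptor on the cell surface and turns on antigen presentation and other immune genes in many cell types.

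The study measured contacts by H3K27ac-HiChIP, which sequences DNA ligated in place and pulled down with an antibody to that mark, in cultured mouse OPCs. Cells of both groups came from pups at postnatal days 4 to 6 of both sexes that carried a Sox10 driven Cre and the RCE:loxP (EGFP) reporter. The labels give the strain as C57BL/6j, while the methods place the RCE:loxP (EGFP) parent line on a mixed C57BL/6xCD1 background, and several brains were pooled per culture. They were collected as Sox10-GFP-positive or CD140a-positive cells and grown in proliferation medium. The Ctr-OPCs (3 libraries) received no IFN-γ and the IFN-γ-OPCs (3 libraries) received 100 ng/mL, added 24 h after passaging and kept for 48 h. The labels tie all 3 libraries of a condition to 1 table, with contacts in bins of 5 kb. The deposited tables held 66637 element-gene pairs for Ctr-OPCs and 71478 for IFN-γ-OPCs, none below an ABC score of 0.02 and none with a gene's own promoter as the element. All 6 OPC markers examined (Pdgfra, Cspg4, Olig1, Olig2, Sox10 and Ptprz1) were listed in both tables, with a promoter activity quantile, the rank of a promoter among all genes from 0 to 1, of at least 0.851 without and 0.815 with IFN-γ. Of 4 microglial markers, 3 were listed in Ctr-OPCs (quantiles 0.473 to 0.782) and 4 in IFN-γ-OPCs (0.604 to 0.825). Of 4 astrocyte markers, 3 were listed in each table (0.620 to 0.817 without and 0.478 to 0.856 with IFN-γ). All 4 neuronal markers were listed in both (0.644 to 0.870 and 0.681 to 0.868), with Tubb3 above the lowest OPC marker in each, and the part of other cells in the totals was not tested.

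Most of the 32 genes lay close to the threshold. Over the group, the median total stood at 0.491 without and 0.338 with IFN-γ, and the median gene was 1.46 times lower with IFN-γ. The median log2 ratio was -0.55, against -0.08 over all 10115 genes, whose own spread between genes was 0.18 (SD). Of the 32 genes, 21 had a ratio between -0.6 and -0.5, 9 between -1 and -0.6, and 2 a ratio of -1 or less. The last genes inside the threshold were Wbp1l at -0.51 (1.84 without and 1.30 with IFN-γ), Cenpq at -0.50 (0.578 and 0.408) and Mpped2 at -0.50 (0.773 and 0.547). Just outside it stood Pcdh11x at -0.50 (0.179 and 0.127), Foxred1 at -0.49 (1.02 and 0.722) and Cep44 at -0.49 (0.408 and 0.290). With the median of all genes subtracted, 13 genes stayed at or below -0.5, from Gm10717 to Fzd8 in the order plotted.

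**Figure D1:**
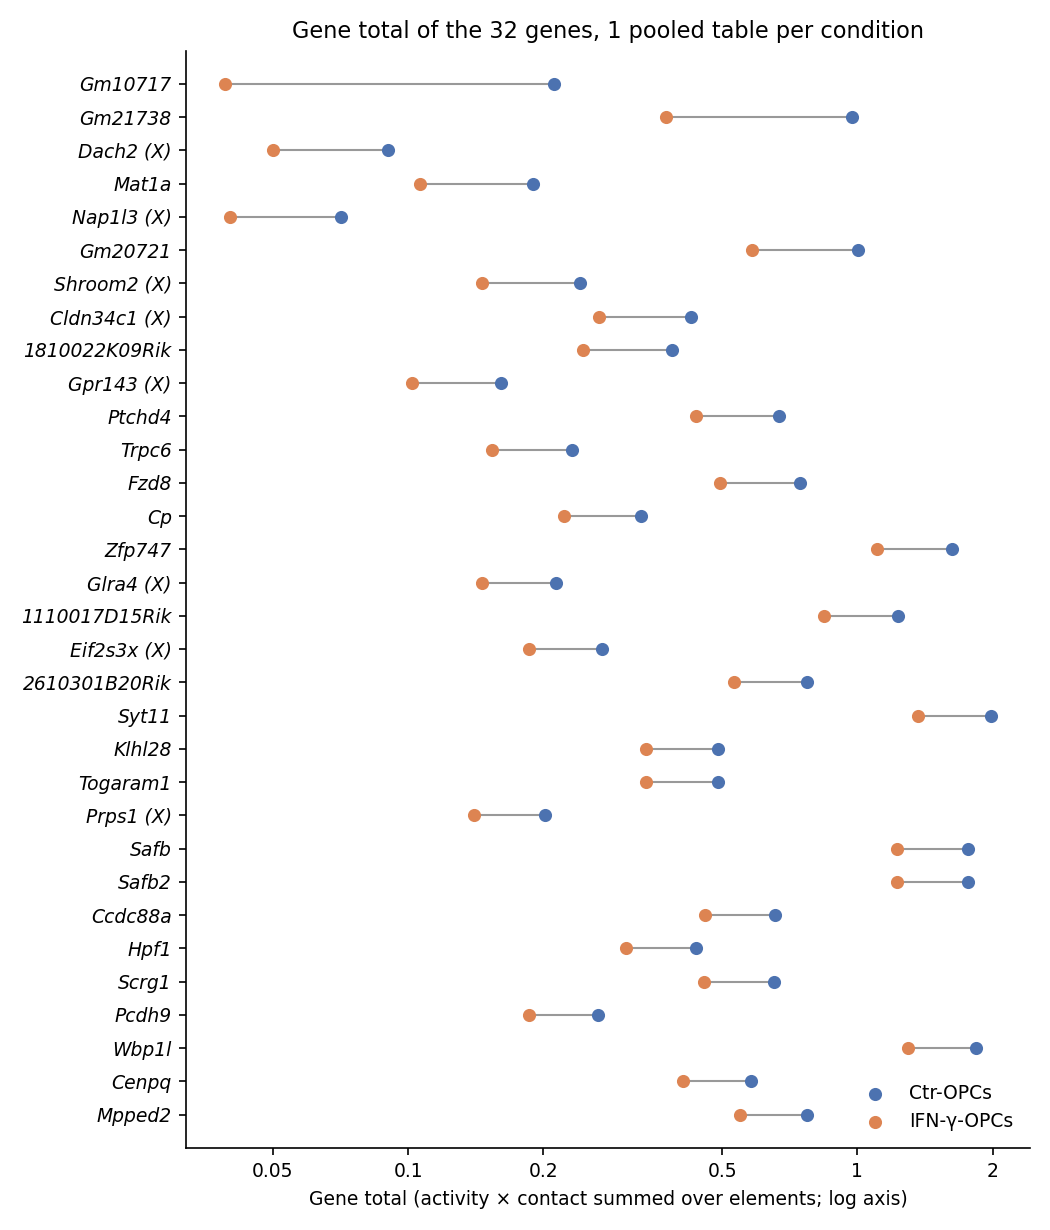
Gene total (activity times contact summed over elements, log axis) of the 32 genes in Ctr-OPCs (blue) and IFN-γ-OPCs (orange), 1 table per condition, ordered by log2 ratio with the lowest at the top and chromosome X genes marked (X). Totals run from 0.0709 to 1.99 in Ctr-OPCs, and the gap between the dots is widest for Gm10717 and Gm21738.

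The 32 genes were set against lists of pathway and cell type genes. Of 393 genes from 17 lists (interferon-induced genes, OPC and myelin genes, WNT, Notch, BMP and receptor tyrosine kinase signalling, cholesterol synthesis, cell cycle, receptors, adhesion, matrix and markers of other cells) 1 (0.254%), Fzd8 of the WNT list, was among the 32, a share near the 0.316% of all genes. The OPC marker list had 0 of 25 measured genes past -0.5 and a median log2 ratio of -0.09, with Sox9 lowest at -0.35. The list of myelin and maturation genes had 0 of 23, a median of -0.11, and Myrf lowest at -0.27. The interferon-induced list had 0 of 25 past -0.5, with 15 genes at 0.5 or more and a median of 0.64. By role, 5 of the 32 genes encode receptors and channels, 4 act in metabolism and metal handling, 8 in the nucleus and in translation, 9 in adhesion, cytoskeleton, membranes and secretion, and 6 are known by an identifier only.

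Among receptors and channels, Fzd8, a receptor for WNT ligands (chromosome 18, bases 9212163 to 9218136, mm10), had a total of 0.747 without and 0.495 with IFN-γ, a log2 ratio of -0.59. Both of its listed elements were kept, and both were weaker. The one overlapping its coding exon (bases 9213229 to 9213728) went from an activity of 2.68 to 1.72, and the one 0.992 kb upstream of the start site from 0.819 to 0.669. The contact of the bin that holds the start site and both elements went from 0.0693 to 0.0398. Over the whole WNT list, 1 of 25 measured genes was at or below -0.5 and the median was -0.12. Trpc6, a cation channel opened by diacylglycerol, had totals of 0.232 and 0.154 (log2 ratio -0.59), and its promoter quantile went from 0.741 to 0.549. Glra4, a glycine receptor subunit, had totals of 0.214 and 0.146 (-0.55) and the most listed pairs among the 32 genes in IFN-γ-OPCs together with Pcdh9 and 1110017D15Rik, 7 each. Gpr143, a G protein-coupled receptor of melanosomes, had totals of 0.161 and 0.102 (-0.66). Ptchd4, a protein with a Patched-type domain, had totals of 0.669 and 0.437 (-0.61).

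Among metabolic genes, Mat1a, which makes the methyl donor S-adenosylmethionine and is best known from liver, had totals of 0.189 and 0.107. Its log2 ratio was -0.83, and its listed pairs went from 9 to 3. Cp encodes ceruloplasmin, a copper-carrying ferroxidase needed for iron export, and had totals of 0.331 and 0.222 (-0.58). Prps1, which makes phosphoribosyl pyrophosphate for nucleotide synthesis, had totals of 0.202 and 0.140 (-0.52). Mpped2, a metallophosphoesterase, had the totals given above.

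In the nucleus and in translation, the lowest ratios belonged to Dach2, a transcription cofactor of the dachshund family (totals 0.0901 and 0.050, log2 ratio -0.85), and Nap1l3, of the nucleosome assembly protein family (0.0709 and 0.0401, -0.82). These were also the lowest totals of the 32 genes in Ctr-OPCs. Safb and Safb2, scaffold attachment factors that bind RNA and chromatin, stood at the other end with 1.76 and 1.23 each (-0.52). Zfp747, a zinc finger protein, had totals of 1.63 and 1.10 (-0.56). Eif2s3x, a subunit of the initiation factor eIF2, had 0.270 and 0.185 (-0.54), and Hpf1, a partner of PARP1 in serine ADP-ribosylation, had 0.438 and 0.306 (-0.52). Cenpq, a kinetochore protein, had the ratio nearest the threshold in this set.

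Among genes of adhesion, cytoskeleton, membranes and secretion, Syt11, a synaptotagmin of vesicle traffic, had the highest totals of the 32 genes (1.99 and 1.37) and the largest absolute difference, 0.621. Next by absolute difference came Gm21738 (0.597), Wbp1l, a membrane protein (0.544), and the Safb genes (0.535). Shroom2, an actin-binding protein, had totals of 0.241 and 0.146 (log2 ratio -0.72), and its promoter quantile went from 0.757 to 0.453. Cldn34c1, a claudin, had 0.425 and 0.266 (-0.68). Ccdc88a, known as girdin, had 0.655 and 0.457 (-0.52), Pcdh9, a protocadherin, 0.264 and 0.186 (-0.51), and Scrg1, a small secreted protein expressed in OPCs, 0.653 and 0.457 (-0.52). Togaram1, a protein of the ciliary axoneme, and Klhl28, of the kelch-like family, each had 0.491 and 0.338 (-0.54).

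Of the genes known by an identifier, 1110017D15Rik had totals of 1.23 and 0.842 (log2 ratio -0.54), Gm20721 1.00 and 0.584 (-0.78), 2610301B20Rik 0.773 and 0.531 (-0.54) and 1810022K09Rik 0.386 and 0.244 (-0.66). Gm21738 (0.971 and 0.374, -1.38) and Gm10717 (0.212 and 0.0390, -2.44) had the lowest ratios of the 32 genes.

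The total was then split into a power-law part and a contact part. The tables hold a second total in which contact is replaced by a power law of distance, the same in both conditions, so its change reflects activity and element positions only, and the remainder reflects the deposited contact. For some pairs of Gm10717, Gm21738 and Syt11 that contact was itself the power-law value, so their contact part is not one of measured contact alone. Over the 32 genes the power-law total had a median log2 ratio of -0.21, against -0.10 over all genes. The contact part had a median of -0.37, against 0.02. The contact part was below 0 in 30 of 32 genes (40.3% of all genes), and in 21 of 32 it was lower than the power-law part (27% of all genes). The power-law total was below 0 in 28 of 32 (74.1% of all genes). A power-law ratio of -0.5 or less was seen in 4 of the 32 genes (0.287% of all genes) and a contact part of -0.5 or less in 10 (0.158% of all genes). Both parts add up to the value the genes were chosen by, so low values of both were built into the choice.

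**Figure D2:**
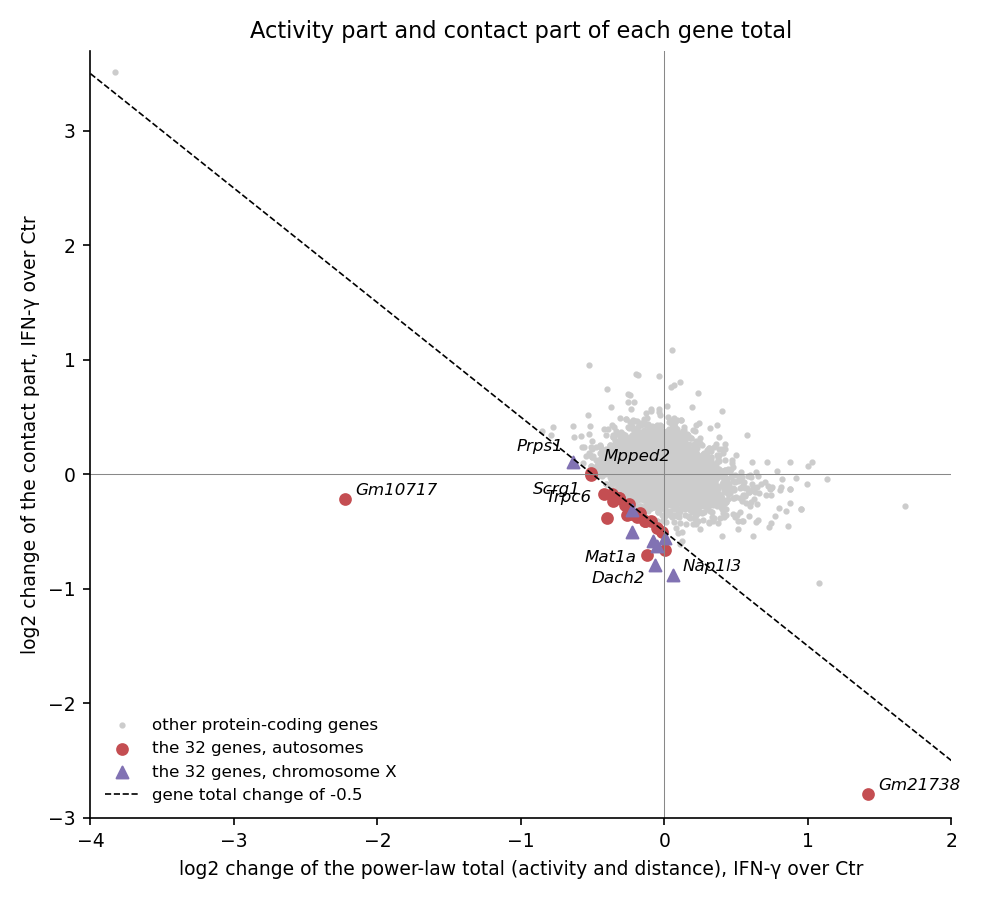
Log2 ratio of the power-law total (x axis, activity and distance) and of the contact part (y axis, gene total over power-law total), IFN-γ over Ctr, for the 10115 protein-coding genes (grey) and the 32 genes (red, autosomes; purple triangles, chromosome X). The dashed line marks a gene total ratio of -0.5, and most of the 32 genes sit just under it at negative contact values, with Gm10717 far to the left and Gm21738 far to the right.

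The genes sorted into 3 kinds by these parts. For Scrg1 (power-law ratio -0.51, contact part -0.01), Mpped2 (-0.51 and 0.01) and Prps1 (-0.63 and 0.11) the power-law part held the difference, although the matched elements of Mpped2 and Scrg1 were also lower in contact. For Nap1l3 (0.06 and -0.88), Dach2 (-0.06 and -0.79), 1810022K09Rik (0.00 and -0.66), Cldn34c1 (-0.05 and -0.62), Glra4 (0.01 and -0.56), Ccdc88a (-0.02 and -0.50) and Hpf1 (-0.05 and -0.47) the contact part held it. Others, such as Fzd8 (-0.36 and -0.23) and Gm20721 (-0.40 and -0.38), were lower in both. Gm21738 was lower in total (-1.38) while its power-law total was higher (1.42).

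Low totals and chromosome X were common among the 32 genes. With all 10115 genes cut into 4 equal groups by the geometric mean of both totals, 21 of the 32 lay in the lowest group (totals up to 0.601), 5, 1 and 5 in the others. The lowest group also held 85 of the 106 genes raised by 0.5 or more, and the SD of the log2 ratio over its genes was 0.23, against 0.12 in the highest group. Chromosome X carried 8 of the 32 genes: Dach2, Nap1l3, Shroom2, Cldn34c1, Gpr143, Glra4, Eif2s3x and Prps1. That was 2.34% of its 342 genes, against 0.246% on autosomes. It also carried 17 of the raised genes (4.97%, against 0.911%). The median log2 ratio over all X genes was 0.05, with an SD over genes of 0.29, and over autosomal genes -0.08, with an SD of 0.18. The median contact of listed pairs on X stood at 0.00683 without and 0.00853 with IFN-γ, against 0.0228 and 0.0224 on autosomes, at median distances of 113 and 101 kb against 11.0 and 12.1 kb. Whether the weaker contacts, the sex mix of the pups or another cause set these X chromosome values was not tested. Without the X genes, 24 genes remained, with a median power-law ratio of -0.24 and a median contact part of -0.35.

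**Figure D3:**
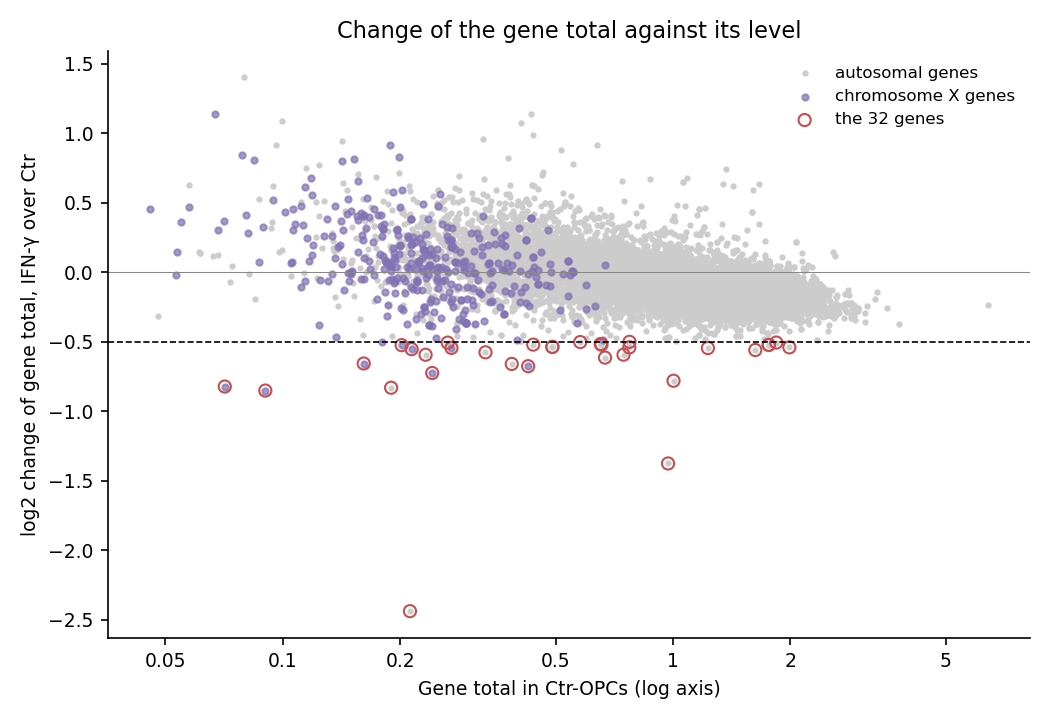
Log2 ratio of the gene total, IFN-γ over Ctr, against the total in Ctr-OPCs (log axis) for autosomal genes (grey), chromosome X genes (purple) and the 32 genes (red circles); the dashed line is -0.5. Ratios spread more widely at low totals, where the X genes lie, and 21 of the 32 circles fall in the lowest of 4 equal groups by total.

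The listed pairs of element and gene differed between the tables for many of the 32 genes. The genes had 90 listed pairs without and 87 with IFN-γ, on 81 separate elements in Ctr-OPCs, 60 of them genic and 21 intergenic. This split was not counted over the elements of all genes. Of the 90 pairs, 51 (56.7%) had no overlapping element listed for the same gene in IFN-γ-OPCs, against 41.3% of the 24427 pairs of all protein-coding genes. Among the 32 pairs with a score above 0.05 in Ctr-OPCs, 12 (37.5%) had none, against 12.6% of the 4514 such pairs of all protein-coding genes. A pair absent from a table may still exist below its lowest score. Matching each element to its best counterpart gave 37 pairs present in both tables, from 22 of the genes. Of the 53 Ctr-OPC pairs left without a match, 28 had an element that overlapped one listed in IFN-γ-OPCs and 25 had an element that overlapped none, and of the 50 unmatched IFN-γ-OPC pairs 31 had an element overlapping one of Ctr-OPCs. Over the 37 matched pairs, the median log2 ratio of activity was -0.09, close to the -0.11 over all 14060 matched pairs. Activity was lower in 24 of 37 (64.9%, against 61.9% of all). Elements differed in width between the tables in 15 of the 37 pairs, a count not made over all matched pairs. Activity divided by width gave a median log2 ratio of -0.11, against -0.06 over all matched pairs. The median log2 ratio of adjusted contact was -0.64, against 0.06 over all matched pairs, and contact was lower in 28 of 37 (75.7%, against 43.3%). These contacts are not all separate, since Klhl28 and Togaram1 share a value, as do the matched pairs of Fzd8 and those of Syt11. In 35 of the 37 the element stayed in its bin, and in 1 pair each of Trpc6 and Mpped2 its centre crossed into the next one, so the contacts of those pairs come from different bins.

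**Figure D4:**
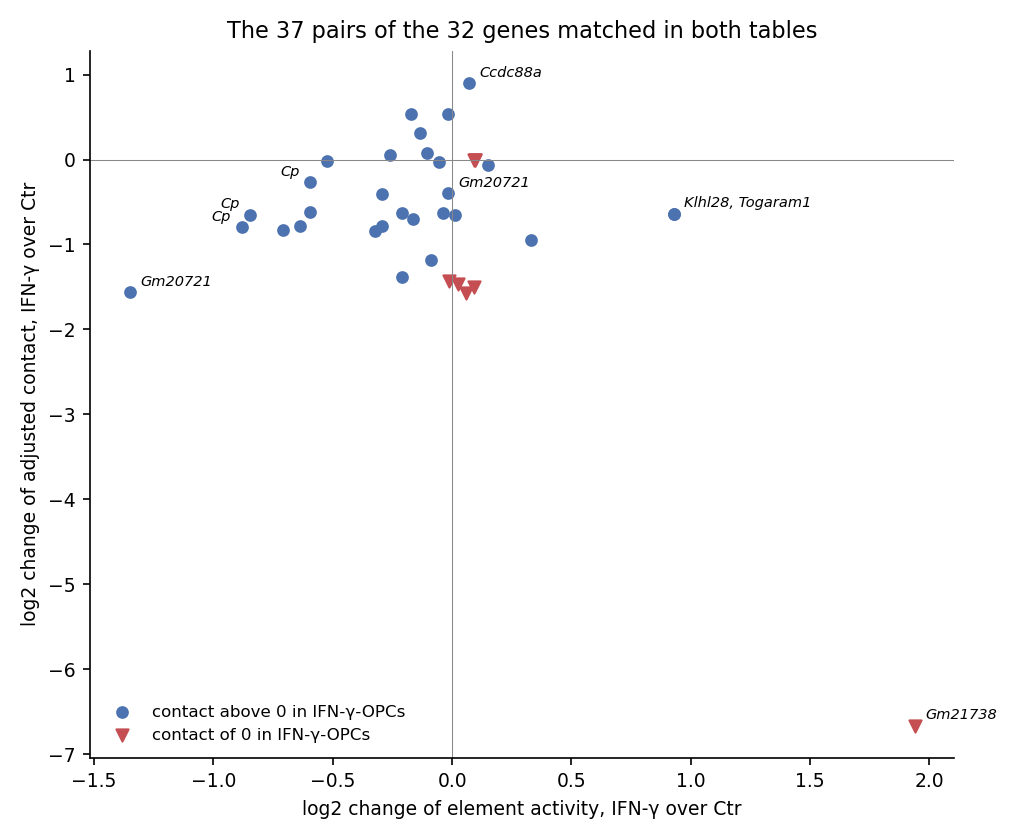
Log2 ratio of element activity (x axis) and of adjusted contact (y axis), IFN-γ over Ctr, for the 37 element-gene pairs of the 32 genes matched in both tables; red triangles have a contact of 0 in IFN-γ-OPCs. Points spread on both sides of 0 in activity, while 28 of 37 lie below 0 in contact.

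Listed pairs accounted for a minor share of the difference in most genes. Listed elements made up a median of 13.9% of the Ctr-OPC total and 8.75% of the IFN-γ-OPC total, against 7.40% and 7.93% over all genes, the rest being unlisted, which leaves promoters and elements under a score of 0.02 that cannot be told apart. As a share of the difference in total, they held a median of 20.5%, from -14.2% in 1110017D15Rik to 99.7% in Gm21738. Only in 7 genes was it over 50%: Gm21738, Gm10717 (96.7%), Mpped2 (80.4%), Syt11 (78.0%), Cp (59.3%), Fzd8 (59.0%) and Mat1a (53.2%). In 5 genes the listed pairs summed higher in IFN-γ-OPCs, as in Ccdc88a, whose intronic element 55.1 kb from the start site (chr11:29428255-29429221) went from a contact of 0.00685 to 0.0139. For 1110017D15Rik, listed pairs went from 3 to 7. A pair missing from a table could still carry up to 0.02 of that gene's total there, and with this allowance the share was at most 50% in 23 genes. The tables list no promoter-class elements, so the limits do not cover an element given that class in 1 condition.

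**Figure D5:**
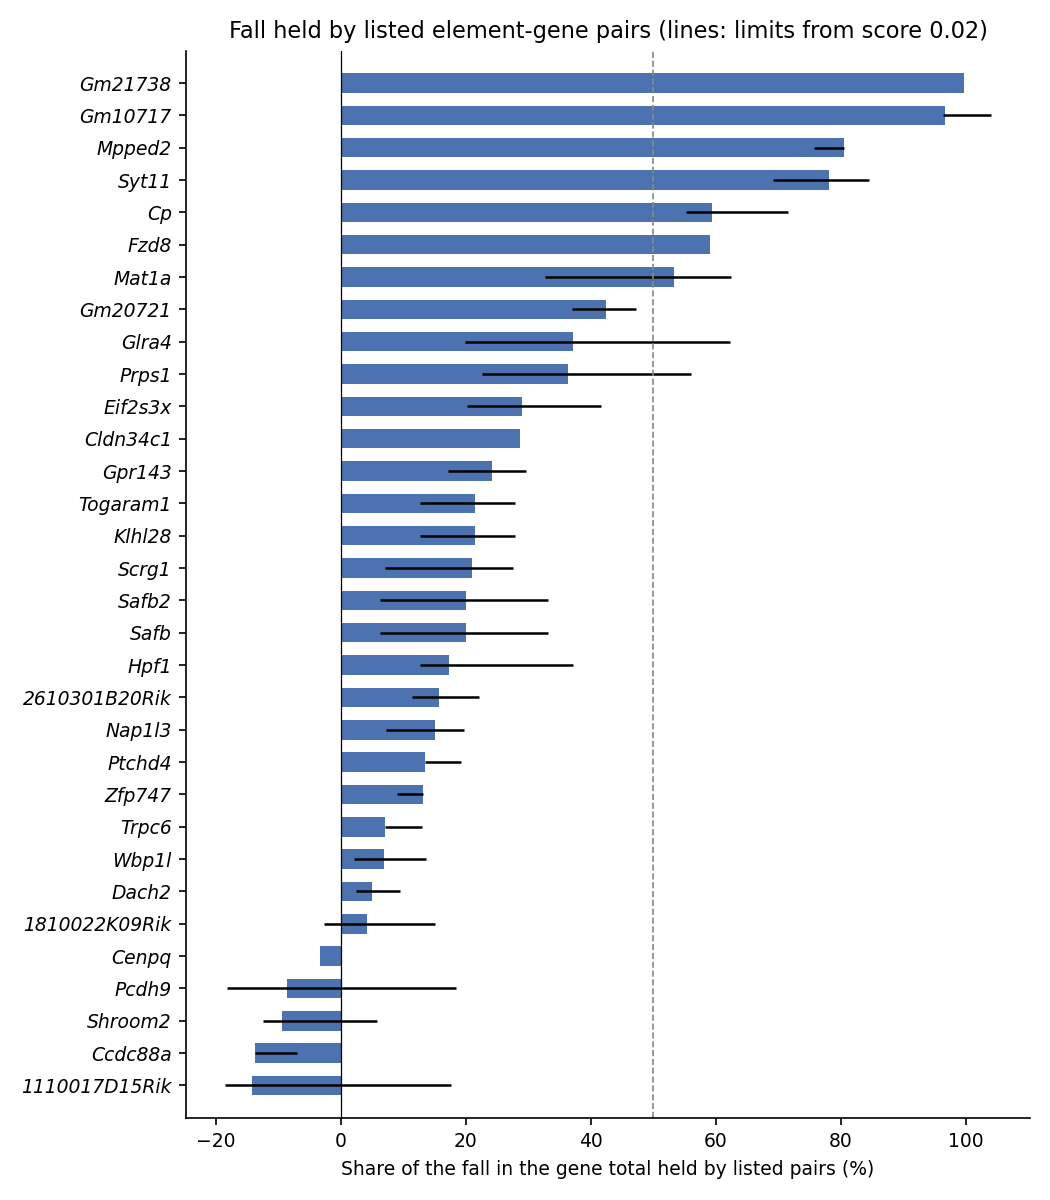
Share of the fall in gene total (Ctr total minus IFN-γ total) held by listed element-gene pairs, in percent, for the 32 genes; black lines give the limits if each missing pair carried up to a score of 0.02. The dashed line is 50%, passed by 7 bars, and 5 bars lie below 0.

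Connections, taken as pairs with an ABC score above 0.05, were fewer in IFN-γ-OPCs for 14 of the 32 genes (12.8% of all genes), more numerous for 3 (14.7% of all genes) and equal for 15 (72.5% of all genes), of which 9 had none in either table (28.1%, against 53.4% of all genes). A gene without a connection in Ctr-OPCs cannot lose one. Among the 20 of the 32 genes with at least 1 in Ctr-OPCs, 14 (70%) had fewer with IFN-γ, against 36.2% of the 3564 such genes among all. Because scores are relative to the gene total, an element that keeps its product scores higher where the total is lower. Syt11 went from 3 connections to 1 and Gm20721 from 2 to 0, and 8 of those 20 genes (40%, against 26.8% of such genes among all) lost their last one, among them Gm10717, Mat1a, Trpc6, Eif2s3x, Prps1 and Hpf1. Shroom2 went from 0 to 1, Ccdc88a from 0 to 1 and Pcdh9 from 0 to 2. The promoter activity quantile was lower in 20 of the 32 genes, against 52.6% of all genes. The lowest against their own control were Shroom2, Trpc6 and 1110017D15Rik (0.636 to 0.489), while Dach2 (0.406 to 0.504) and Glra4 (0.454 to 0.587) were higher.

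Cp, Mpped2 and Trpc6 showed elements with lower activity and contact, and several of these also differed in width between the tables. The strongest listed element of Cp lay 3.13 kb upstream of the start site (chr3:19953552-19954292, in no annotated gene), and went from an activity of 1.22 to 0.662 and a contact of 0.0538 to 0.0304. Its width went from 741 to 500 bases, and its activity per kb from 1.65 to 1.32. Its score went from 0.203 to 0.0944. A second upstream element of Cp, 52.5 kb away, went from 1.11 to 0.615 in activity and 0.0207 to 0.0128 in contact, but it was 1137 bases wide without and 500 with IFN-γ, and its activity per kb was higher with IFN-γ (0.972 and 1.23). Mpped2 had an intronic element 0.901 kb from its start site (chr2:106693921-106694420) with an activity of 2.26, a contact of 0.0474 and a score of 0.142 in Ctr-OPCs, and no element overlapping it was listed in IFN-γ-OPCs. The neighbouring Mpped2 element (chr2:106694553-106695418) went from an activity of 2.02 to 1.23 and from 866 to 500 bases, so that its activity per kb was 2.33 and 2.46. The only listed Ctr-OPC element of Trpc6 lay in its intron, 20.7 kb from the start site (chr9:8564561-8565060). It went from 1.14 to 0.752 in activity and 0.0125 to 0.00774 in contact. Its width went from 500 to 907 bases, and its activity per kb from 2.27 to 0.829. The middle 300 bases of the strongest Ctr-OPC element of each gene, read from the mm10 (GRCm38.p6) plus strand, are shown so that the sequence behind these values can be seen, with matches to any of the 10 motifs searched in capitals.
Cp element: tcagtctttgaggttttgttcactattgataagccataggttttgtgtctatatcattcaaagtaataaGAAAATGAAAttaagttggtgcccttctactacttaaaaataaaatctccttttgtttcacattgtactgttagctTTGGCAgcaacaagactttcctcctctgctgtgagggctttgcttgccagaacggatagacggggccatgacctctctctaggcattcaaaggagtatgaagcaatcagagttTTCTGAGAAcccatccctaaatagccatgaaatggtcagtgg
Mpped2 element: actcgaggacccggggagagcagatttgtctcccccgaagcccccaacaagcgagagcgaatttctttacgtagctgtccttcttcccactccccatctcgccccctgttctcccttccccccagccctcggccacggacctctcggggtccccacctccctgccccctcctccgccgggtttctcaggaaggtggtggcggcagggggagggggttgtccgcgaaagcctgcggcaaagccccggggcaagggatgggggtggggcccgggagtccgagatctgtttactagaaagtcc
Trpc6 element: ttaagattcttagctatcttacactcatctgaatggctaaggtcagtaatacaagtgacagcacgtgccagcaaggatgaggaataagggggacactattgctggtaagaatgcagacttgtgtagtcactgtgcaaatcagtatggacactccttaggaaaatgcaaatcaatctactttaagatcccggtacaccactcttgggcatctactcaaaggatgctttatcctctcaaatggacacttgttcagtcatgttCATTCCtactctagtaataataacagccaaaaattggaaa
The capitals in the Cp element (chr3:19953772-19954071) mark, from left to right, an interferon-stimulated response element pattern, an NFI pattern (TTGGCA) and a STAT site (TTCNNNGAA). Those in the Trpc6 element (chr9:8564661-8564960) mark a TEAD site (GGAATG on the other strand), and the Mpped2 stretch (chr2:106694021-106694320) held none of the motifs.

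In other genes the elements were lower in contact alone, lower in both activity and contact, or listed in 1 condition only. Hpf1 had an element over a Clcn3 coding exon, 64.1 kb away (chr8:60954221-60954720), with activities of 3.82 and 3.59 and contacts of 0.00519 and 0.0016. Its element over its own coding exon (chr8:60900161-60900796) had activities of 0.602 over 636 bases and 0.607 over 783, while contact went from 0.0316 to 0.0196. For Zfp747 the matched element, 102 kb away, had activities of 4.94 over 500 bases and 6.20 over 773, which is 9.87 and 8.03 per kb, and contacts of 0.0143 and 0.00681. Wbp1l had a matched element 99.0 kb away, in no annotated gene, that was lower in activity (5.64 and 4.51) and in contact (0.0103 and 0.00522). Glra4 had a matched element 24.5 kb away in an intron of BC065397, with activities of 1.22 and 1.06 and contacts of 0.0137 and 0.00447, and 2 others with contacts of 0.00859 and 0.00851 and of 0.0214 and 0.0209. It had 4 more pairs listed only without and 4 only with IFN-γ. The highest Glra4 score with IFN-γ, 0.0982, belonged to 1 of the latter, 2437 kb away (chrX:139216904-139217403). Scrg1 had a matched element 19.6 kb upstream with activities of 1.37 and 1.22 and contacts of 0.0185 and 0.0109, and its 3 other Ctr-OPC elements were not listed for it with IFN-γ. Each of those 3 still overlapped an element of another gene in IFN-γ-OPCs, of another width in each case.

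Eif2s3x, Prps1 and 2610301B20Rik had no matched element. The strongest Ctr-OPC element of Eif2s3x lay 34.9 kb away (chrX:94177735-94178234) with an activity of 2.60 and a score of 0.0971. An element overlapping it was listed for another gene in IFN-γ-OPCs with an activity of 2.20. The Prps1 element in its own intron, 1.15 kb from the start site (activity 0.396, score 0.125), and the 2610301B20Rik element in its own intron, 0.99 kb from the start site (activity 0.779, score 0.0819), had no overlapping element listed with IFN-γ. Pcdh9 differed from these: its 3 matched intronic elements changed little in product (0.0109 and 0.0124, 0.00995 and 0.0106, 0.00581 and 0.00571), so their scores were higher over the lower total.

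Motifs were searched on both strands in the middle 300 bases of the 81 elements of Ctr-OPCs and of all 16210 elements listed for protein-coding genes. The STAT pattern was found in 11 of 81 (13.6%, against 8.29% of all), the interferon-stimulated response element in 4 (4.94%, against 3.18%) and the ETS pattern (CCGGAAG) in 5 (6.17%, against 3.18%). AP-1 (TGANTCA) was found in 4 (4.94%, against 8.77%), SOX (ACAAAG) in 19 (23.5%, against 26.5%), the CAGCTG E-box in 17 (21%, against 27%), TEAD in 11 (13.6%, against 16.9%), NFI in 15 (18.5%, against 19.6%), the RFX pattern (GTTGCC) in 7 (8.64%, against 12.8%) and the CTCF core in 1 (1.23%, against 2.75%). These are matches of letters, with overlaps between patterns counted for each, and no share was tested.

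The lowest ratios of all belonged to genes in repeated sequence. Gm10717 (chr9:3025417-3033289) is an annotated gene near the start of the chromosome 9 assembly. Its totals were 0.212 and 0.0390, so that of IFN-γ-OPCs was 5.42 times lower. In Ctr-OPCs 1 element, 25.3 kb away (chr9:2999856-3000355), held 80.3% of the total with an activity of 5.37, and no element overlapped it in IFN-γ-OPCs. Of its bases, 145 are unknown in the assembly, where the sequence starts. Gm21738 (chr14:19415857-19418930) had 1 listed pair in each condition, with overlapping elements over its coding exon. Activity went from 4.96 over 500 bases to 19.0 over 908, while the contact went from 0.123 to 0. Both contacts in Ctr-OPCs equalled the power-law value for their distance, which held for 0.237% of the pairs of all genes there and for 0.210% with IFN-γ. The elements aligned to each other at 81.3% identity over 358 bases. At 90% identity over 100 bases or more the Gm10717 element had 21 alignments on 5 chromosomes, and the Gm21738 element 11 alignments on 5. How reads that fit several places were shared between these elements was not tested.

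Syt11 also had contacts equal to the power-law value, by a rule not given in the sources used here. Its elements in an intron (chr3:88771197-88772119, activity 3.15) and over a coding exon (chr3:88772125-88772788, activity 1.63) had scores of 0.198 and 0.102 in Ctr-OPCs and were not listed for it in IFN-γ-OPCs. Their contact of 0.123 was the power-law value, as for Gm21738. In IFN-γ-OPCs the contacts of all 3 of its listed pairs equalled the power law, and 2 of these had measured contacts in Ctr-OPCs. Those 2 were higher with IFN-γ, in contact (0.0250 and 0.0370 for each) and in product (0.108 and 0.156, 0.0521 and 0.0674). An element overlapping the intronic one was listed for another gene in IFN-γ-OPCs, with an activity of 2.12 over 500 bases in place of 923. Both Ctr-OPC elements have a second copy about 60 kb downstream on the chromosome 3 plus strand, at 98.8% identity (chr3:88831170-88832092) and 98.6% identity (chr3:88832098-88832760). The middle of the intronic element, whose product of activity and contact differed most after that of Gm21738, is shown with a SOX and an ETS match in capitals.
Syt11 element: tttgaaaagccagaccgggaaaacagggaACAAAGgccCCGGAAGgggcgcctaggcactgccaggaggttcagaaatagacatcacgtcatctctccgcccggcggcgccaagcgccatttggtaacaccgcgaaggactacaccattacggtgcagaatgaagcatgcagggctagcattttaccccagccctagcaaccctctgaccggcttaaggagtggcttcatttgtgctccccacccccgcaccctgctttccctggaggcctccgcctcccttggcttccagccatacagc
It spans chr3:88771508-88771807. Apart from Gm10717, Gm21738 and Syt11, the 32 genes had no pair at the power-law value.

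Ptchd4 and Cenpq shared 2 listed elements, stretches inside the lincRNA Gm26917 on chromosome 17 (chr17:39844275-39844774 and chr17:39845261-39845975). The RefSeq annotation places an 18S ribosomal RNA related sequence, Rn18s-rs5, beside them at chr17:39846354-39848202. Their activities, 29.6 and 43.7 without and 31.6 and 46.5 with IFN-γ, compared with a median of 0.866 over all 33083 elements of Ctr-OPCs and 0.803 over the 35906 of IFN-γ-OPCs, and the stronger one ranked 2 and 3 among them. They lay 1089 to 1091 kb from the Cenpq start site and 2470 to 2471 kb from that of Ptchd4. Contact was 0 in both conditions for Cenpq. For Ptchd4 it was 0.00102 at the stronger element without IFN-γ and 0 with it, where the product rests on the pseudocount. Ptchd4 had 1 more element, in an intron of Opn5 288 kb away (chr17:42603345-42604114), listed with IFN-γ only at a score of 0.0246. A contact of 0 was found in 13.8% of the pairs of the 32 genes in IFN-γ-OPCs, in 6 genes (Cenpq, Gm10717, Gm21738, Gpr143, Mat1a and Ptchd4), against 0.974% over all genes, and in 3.33% in Ctr-OPCs, against 1.02%. For Mat1a this was the strongest element, in an intron of Tspan14 149 kb away (chr14:40956143-40956642), whose activity was 3.97 and 4.13 while its contact went from 0.00243 to 0.

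Some of the 32 genes shared a start region and with it their total. Safb2 and Safb start 240 bp apart on opposite strands, and Klhl28 and Togaram1 270 bp apart, so each couple lies in 1 bin of 5 kb and had the same totals to 3 digits. The 3 Ctr-OPC elements of Safb and Safb2 lay within Safb2 (chr17:56571044-56573706, chr17:56576042-56576855 and chr17:56577799-56578789). None of them overlapped an element of IFN-γ-OPCs, where 2 others were listed. Listed pairs held 20.0% of the difference in total of each gene. Shroom2 and Gpr143 start 12.5 kb apart on chromosome X and share an intronic element of Shroom2 (chrX:152656091-152656590), whose activity was 1.94 and 1.97 while its contact with Gpr143 went from 0.00216 to 0. These were the 6 genes with another of the 32 within 250 kb, leaving 29 separate loci. No such count was made for other sets of 32 genes, so whether 6 is unusual was not tested. The sequence between the start sites is shown for the first 2 couples, as the promoter that both genes of a couple share.
Safb2 and Safb shared start region: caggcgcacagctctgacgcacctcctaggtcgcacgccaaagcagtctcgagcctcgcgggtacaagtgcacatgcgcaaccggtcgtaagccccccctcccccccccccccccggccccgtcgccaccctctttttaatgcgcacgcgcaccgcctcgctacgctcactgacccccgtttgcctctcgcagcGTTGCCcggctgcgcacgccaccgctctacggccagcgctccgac
Klhl28 and Togaram1 shared start region: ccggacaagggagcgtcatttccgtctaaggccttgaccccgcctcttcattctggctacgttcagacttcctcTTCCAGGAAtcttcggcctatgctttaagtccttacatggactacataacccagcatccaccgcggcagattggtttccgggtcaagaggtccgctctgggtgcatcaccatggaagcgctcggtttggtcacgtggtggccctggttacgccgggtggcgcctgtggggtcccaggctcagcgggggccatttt
The first spans chr17:56584586-56584824 and holds an RFX pattern. The second spans chr12:64965535-64965803 and holds a STAT pattern, each in capitals.

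Genes that start near the 32 were looked at by distance, each counted once beside its nearest one of the 32. The 3 other genes of any type that start in the same bin as one of the 32 (Fam219aos beside 1110017D15Rik, n-TSaga9 beside 2610301B20Rik and the pseudogene 5830417I10Rik beside Syt11) each had a log2 ratio of -0.54, like the gene they adjoin, since contact is read by bin. Mut starts 362 bp from Cenpq but in the next bin, and had a log2 ratio of -0.35 against -0.50. It was 1 of 2 genes outside the 32 that start in another bin within 10 kb, whose median was -0.28. Of 27 such genes with a start site 10 to 50 kb away, 0 were at or below -0.5, with a median of -0.21 and 22 below 0. Of 130 genes 50 to 250 kb away, the median was -0.10 and 1, the miRNA gene Mir6977 166 kb from Safb2, was at or below -0.5 (-0.55). These medians are over genes of any type. The median over protein-coding genes alone was -0.08, so most of those also had a ratio below 0. Of the 98 protein-coding neighbours within 250 kb that were not among the 32, 0 passed by definition, and their median was -0.11.

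The contact of the start bin with itself could be read in both tables, above 0, for Cldn34c1, Fzd8, Klhl28 and Togaram1, which had a listed element in that bin. It went from 0.160 to 0.103 for Cldn34c1 and from 0.0446 to 0.0282 for the Klhl28 and Togaram1 couple, 1.56 and 1.58 times lower. For Fzd8 it was 1.74 times lower. Over the 2095 protein-coding genes with such a value, the median log2 ratio was 0.04, and 6.83% had a ratio of -0.5 or less. The only listed Cldn34c1 element (chrX:123104424-123105160) has a second copy at 92.2% identity (chr7:44086375-44087092). For Klhl28 and Togaram1, 2 neighbouring Ctr-OPC elements of their start bin overlapped 1 longer element of IFN-γ-OPCs. Their activities summed to 1.36, against 1.30 for the longer one, and their products to 0.0622, against 0.0383. Gm20721, an identifier-only gene inside the imprinted Gnas locus (Gnas encodes the stimulatory G protein alpha subunit), had a Ctr-OPC element 2.97 kb from its start site (chr2:174342986-174344506) with an activity of 1.72. It overlapped 2 elements of IFN-γ-OPCs with activities of 0.674 and 0.844, which sum to 1.52. Contact was 0.0699 for the first and 0.0230 for both of the others.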

How the data were processed

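H3K27ac-HiChIP contacts of 3 Ctr-OPC and 3 IFN-γ-OPC libraries were analysed through 1 deposited ABC table per condition. The submitters' processing notes name HiC-Pro for alignment and removal of duplicates, and mm10 as the build. The HiC-Pro version is not given in the sources used here. The labels tie all 3 libraries of a condition to 1 table at 5 kb, and how their contacts were combined is not given in the sources used here. Per the study's methods, candidate elements and their activity were obtained with default parameters of the ABC model, from the CUT&RUN signal for H3K27ac and the bulk ATAC-seq signal of each condition. The deposited activity is a signal, and the deposited contact a score, both scaled by the authors. The ABC score is a fraction computed by the authors, each element's share of its gene's total, and the power-law score and the promoter activity quantile, as deposited, also run from 0 to 1. The numerator, activity times adjusted contact, is a deposited score with no fixed range. Sequencing depth behind these values is unknown, and no interval over replicates could be given.

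The gene total was the median over a gene's pairs of numerator divided by ABC score. Totals of 1 gene differed by at most 0.206% between its pairs. Log2 ratios are IFN-γ over Ctr with no pseudocount. Elements were matched between tables by mutual best overlap of at least 1 bp. Gene types, start sites and exons came from the GENCODE M21 annotation, and 397 of the 20321 genes listed in both tables had no match. Sequences were read from GRCm38.p6, the assembly of mm10. Second copies were sought with BLAST 2.17.0 (90% identity over 80% of an element, word size 48), and alignments of the Gm10717 and Gm21738 elements from 100 bases. Calculations ran in Python 3.11.15 (with NumPy 2.4.6, pandas 2.3.3 and SciPy 1.17.1), plots in matplotlib 3.10.9, and the computation of totals was tested on simulated data.

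The members and gene lists were chosen with earlier results of these data known. Genes were named by rule: the 10 lowest ratios, the 5 largest absolute differences, the 5 with most connections lost, the 3 on each side of the threshold, members of a gene list, members of the 5 loci with most members, and genes of the 5 elements that differed most. Other members are named with their roles after their values were seen. Alternatives were other thresholds, scalings, score cut-offs, matching rules and windows. With 1 table per condition there was no test. A small number of items are not reported here.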

Additional observations from a re-analysis of the deposited data

How the results depend on the processing

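Of 40 alternatives tried over 8 results, 34 left the value within the tolerance set. It was 0.1 on the log2 scale, 1.5 times a count and 5 percentage points for the share of the difference in total. For the share of Ctr-OPC pairs without an overlap it was 45.8 to 67.1%, the exact 95% binomial interval. That range treats the 90 pairs as independent although they lie on 81 elements, so it is a tolerance only. Leaving out 5 or 8 genes could not move the count of 32 past its tolerance. With a threshold of -1 in place of -0.5, 2 genes were left of 32, and with the median of all genes subtracted 13 were left. With the same subtraction the median power-law ratio of the 32 genes was -0.10 in place of -0.21. The median activity ratio of their matched elements turned from -0.09 to 0.018 once the median of all matched pairs was subtracted, while that of contact lay between -0.62 and -0.70 under all its alternatives. At a score above 0.1, 8 genes in place of 14 had fewer connections. Among pairs above 0.05 in Ctr-OPCs, 37.5% had no overlapping element in IFN-γ-OPCs, in place of 56.7%. The total built on the power law gave 29 genes at or below -0.5, of which 4 were among the 32. This count fell within the tolerance, but with mostly other genes. Further alternatives were chosen after seeing the data. Without Gm10717, Gm21738, Syt11, Ptchd4 and Cenpq, 27 genes were left, with a median activity ratio of -0.15 and a median contact ratio of -0.64 over matched pairs. The first 3 had copied sequence and power-law contact, and the last 2 shared the elements of extreme activity inside Gm26917. Cldn34c1, whose listed element also has a second copy, was kept. Without chromosome X, 24 genes were left, and 51.5% of Ctr-OPC pairs had no overlapping element. With overlapping elements of a gene summed on each side, the median activity ratio was -0.09, and with activity divided by element width -0.11. No paired analysis was possible because 1 table stands for the 3 numbered replicates of a condition. The replicate spread and the depth behind each contact are therefore unknown, and elements below a score of 0.02 and promoters are not listed.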
